A study of Sus scrofa with 21 samples.

Results

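WNT5A, a secreted Wnt ligand, and 9 genes around it (the ligands WNT4 and WNT2B, the receptor genes RYK, ROR1, ROR2, FZD2, FZD5 and FZD7, and VANGL2, a membrane protein of planar cell polarity) were described in boar testis. The genes were chosen by symbol, and the set was built on WNT5A because it was high in boars with a high change in sperm hyperactivity over storage, so its values in that comparison chose it. Of the 10 genes, 9 had a row among the 25880 genes of the count files, and 6 (WNT5A, RYK, ROR1, FZD5, FZD7 and VANGL2) reached 1 CPM (read counts scaled to library size) in enough libraries to enter every comparison. WNT2B, ROR2 and FZD2 did not, and WNT4 was not analysed here.

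The libraries were made from testis tissue taken after slaughter from purebred Norwegian Landrace and Duroc boars in use for artificial insemination, with 1 library per boar, from 13 Landrace and 8 Duroc boars. In Landrace, contrast (i) sets 4 boars with high against 4 with low hyperactivity (a vigorous, whip-like sperm movement) on day 0, the day of ejaculation. Contrast (iii) sets 3 boars with a high against 4 with a low change over 96 h of storage at 18 °C. Boar L2 is in both low groups and boar L7 in both high groups. The Duroc boars are labelled High (5 boars) or Low (3 boars), and for 7 of these 8 the group given in the study's own list of boars is the opposite of the deposited label, so the direction in Duroc is given as labelled. Depth ran from 47988011 to 97059970 gene counts in Landrace and from 41358671 to 125576407 in Duroc. The testis label was checked against markers of 9 cell types: every one of the listed markers with a row had reads in some library except AMH, a Sertoli cell hormone, which had 0 reads in 21 of 21 libraries, while CSF1R and CD14, of macrophages, each had 0 reads in 1 library. In whole tissue, fewer cells of a type and less RNA per cell cannot be told apart.

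WNT5A is best known for Wnt signalling that does not go through beta-catenin. It binds the receptor tyrosine kinase-like proteins ROR1 and ROR2, the Wnt-binding co-receptor RYK and several Frizzled (FZD) receptors, and acts on cell polarity and movement through Dishevelled, small GTPases and the JNK kinases. VANGL2 is a core protein of planar cell polarity, the coordinated orientation of cells in a tissue, and is modified in response to WNT5A.

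WNT5A (ENSSSCG00000035859, chromosome 13 from 37344684 to 37367215 of Sscrofa11.1 in the RefSeq annotation) had reads in every library, from 165 to 2507. Its level over all boars ran from 2.02 CPM in L8 to 20.0 CPM in D3, a 9.92-fold range, with a median of 10.1 CPM. In the low day 0 group it was 4.64 CPM in L1, 6.85 in L2, 8.87 in L3 and 9.13 in L4. In the high day 0 group it was 7.77 CPM in L5, 19.3 in L6, 12.05 in L7 and 2.02 in L8. The high day 0 boars thus held both the lowest and the highest Landrace level, and the low boars lay between them.

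Among the boars chosen for change over storage, WNT5A was 4.24 CPM in L9, 3.48 in L10 and 4.61 in L12, which with L2 form the low group. It was 11.4 CPM in L13 and 17.8 in L15, which with L7 form the high group. In Duroc, the boars labelled High had 11.13 CPM (D1), 16.04 (D2), 20.0 (D3), 10.1 (D4) and 16.8 (D5), and those labelled Low had 6.48 (D6), 14.3 (D7) and 10.1 (D9). The high and low change groups did not overlap, and the Duroc groups did.

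Ordered by mean, WNT5A was 4.80 ± 1.45 CPM (SD, n = 4) with a low change, 7.37 ± 2.09 (n = 4) with low day 0 hyperactivity, 10.3 ± 7.26 (n = 4) with high day 0 hyperactivity, 10.3 ± 3.90 (n = 3) in Duroc labelled Low, 13.7 ± 3.52 (n = 3) with a high change and 14.8 ± 4.15 (n = 5) in Duroc labelled High. Each pair of neighbours in this order overlapped.

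**Figure D1:**
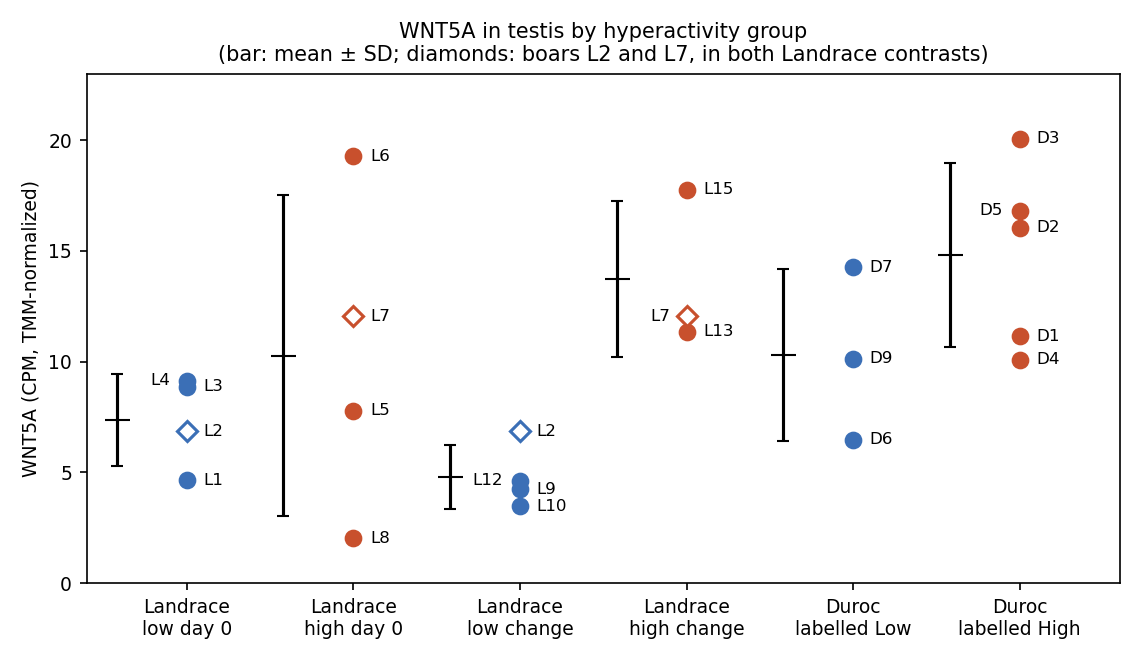
WNT5A level in each boar (vertical axis, CPM) by hyperactivity group (horizontal axis), with the mean ± SD beside each group and L2 and L7, which are in both Landrace contrasts, as open diamonds. The 4 high day 0 boars spread from 2.02 to 19.3 CPM around the low day 0 boars, and the 3 high change boars, from 11.4 CPM up, lie above the 4 low change boars, none over 6.85 CPM.

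In contrast (iii), the comparison that chose WNT5A, the log2 fold change (high over low change) was 1.52 with a standard error of 0.27, a 2.87-fold difference. It ranked 14 among the 12824 genes fitted. Of all these genes, 16.2% had groups that did not overlap, and nothing is read from the same property of WNT5A, since it was chosen here. The summed level of 6 fibroblast markers was also higher, from 143 to 245 CPM against 69.9 to 132, and that of 4 endothelial markers was from 36.7 to 46.0 CPM against 22.7 to 40.0. For 6 Leydig cell markers the sums were from 1328 to 2449 CPM against 544 to 2132, and for 6 spermatid markers from 5493 to 9784 against 8959 to 11799. No marker of these lists was at 0 in these libraries, and their part in the WNT5A difference was not tested.

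In contrast (i), which did not choose the genes but shares L2 and L7 with the comparison that did, the log2 fold change of WNT5A was 0.49 (standard error 0.49, 95% interval -0.58 to 1.57, adjusted p = 0.455 in edgeR's quasi-likelihood test). The difference was smaller than the spread within the high group, and a two-sided exact permutation test on log2 CPM gave p = 0.886. The value rested on single boars, being 0.02 without L6 and 0.85 without L8. L6 and L8 also had the highest and lowest summed level of the 6 Leydig cell markers among the Landrace boars, 4466 and 462 CPM, and their part in this spread was not tested.

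The Duroc boars labelled High had a log2 fold change of WNT5A of 0.53 over those labelled Low (standard error 0.30, 95% interval -0.14 to 1.19, adjusted p = 1.0 in edgeR's quasi-likelihood test). The exact permutation test was two-sided and gave p = 0.179, where 5 boars against 3 cannot go below 0.0357. The difference between this effect and that of contrast (i) was 0.003 on the log2 scale (95% interval -1.38 to 1.39, adjusted p = 0.998 in edgeR's test of the interaction), an interval wide enough to hold a large difference in either direction. That value holds only for the Duroc direction as labelled. With High and Low exchanged for all the Duroc boars, which was done after seeing the data, the difference was -0.98 (95% interval -2.37 to 0.41, adjusted p = 0.353 in the same edgeR test).

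Over all boars, WNT5A was 13.1 ± 4.43 CPM (SD, n = 8) in Duroc and 8.62 ± 5.33 (n = 13) in Landrace, and the breeds overlapped. In the fit the log2 fold change was 0.61 (standard error of 0.32, 95% interval -0.05 to 1.27, unadjusted p = 0.0701 and adjusted p = 0.484 in edgeR's quasi-likelihood test). The two-sided exact permutation test on log2 CPM gave p = 0.0381, before any adjustment for the other members and comparisons tested in the same way. Breed cannot be told apart from the selection of the boars, since extremes were picked within each breed and some Landrace boars for their change over storage. With only the day 0 Landrace boars against Duroc, the log2 fold change was 0.58.

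WNT2B, a ligand usually placed in the beta-catenin branch, had 6 to 82 reads per library. In Landrace its level ran from 0.181 to 0.683 CPM, with a median of 0.309. In Duroc it ran from 0.117 CPM in D6 to 0.914 CPM in D5, with a median of 0.406, so the Duroc range held that of Landrace.

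Of the receptor genes, RYK (ENSSSCG00000011642, chromosome 13 from 75285482 to 75390314), which encodes a membrane protein that binds Wnt ligands outside the cell, varied least, with a 1.61-fold range over all boars against 9.92-fold for WNT5A. In the low day 0 boars L1 to L4 RYK was 44.3, 44.8, 39.9 and 38.4 CPM, and in the high day 0 boars L5 to L8 it was 41.3, 45.00, 47.1 and 53.0 CPM. The low change boars L9, L10 and L12 had 37.6, 52.2 and 35.7 CPM and the high change boars L13 and L15 had 53.4 and 50.4 CPM. In Duroc it ran from 39.0 CPM in D4 to 57.5 in D6. L8, the boar with the least WNT5A, was among the Landrace boars with the most RYK, as was L13 with 11.4 CPM of WNT5A. Over the Landrace boars Pearson's r of RYK with WNT5A was 0.02.

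ROR1 (ENSSSCG00000003811, chromosome 6 from 148314575 to 148834659), a receptor of the WNT5A branch, ran from 1.24 to 3.06 CPM in Landrace, with a median of 2.15, and from 1.17 to 2.46 CPM in Duroc, with a median of 1.84. Its close relative ROR2 (ENSSSCG00000009593, chromosome 14 from 2803840 to 3035384) had between 1 and 21 reads in a library, too few for a comparison of groups. Reads of FZD2 (ENSSSCG00000029838, chromosome 12 from 18740417 to 18742301), a Frizzled receptor, were between 0 and 7 per library, with 0 reads in 7 of the 8 Duroc and 4 of the 13 Landrace boars. A count of 0 allows up to 3 counts, or between 0.0239 and 0.0725 CPM over these libraries. Only L3 (0.0833 CPM), L9 (0.0906) and L12 (0.0816) lay above the highest of these limits. The sums were 26 reads in Landrace and 3 in Duroc, and a difference between the breeds was not tested.

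FZD5 (ENSSSCG00000016140, chromosome 15 from 110913990 to 110921388) and FZD7 (ENSSSCG00000016111, chromosome 15 from 105644164 to 105648860) encode Frizzled receptors that take part in either Wnt branch. FZD5 ran from 2.90 to 12.9 CPM in Landrace, with a median of 4.19, and from 1.36 to 5.80 CPM in Duroc, with a median of 4.05. FZD7 ran from 3.68 to 9.34 CPM in Landrace, with a median of 4.74, and from 3.32 to 5.38 CPM in Duroc, with a median of 3.98. The highest level of each was in L13. This boar also had the highest summed level of 8 Sertoli cell markers, 499 CPM, with the other Landrace boars between 185 and 255 CPM. It stood apart in the 6 fibroblast markers as well, at 245 CPM where the others reached at most 144. Its endothelial (46.0 CPM) and macrophage (13.1 CPM) sums were the highest of the Landrace boars, next to 41.2 CPM in L3 and 12.1 in L6, and its spermatid sum, 5493 CPM, was the lowest, next to 6195 in L15. The part of these cells in its FZD5 and FZD7 levels was not tested.

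VANGL2 (ENSSSCG00000006383, chromosome 4 from 90051994 to 90080701) was 5.17 CPM in L1, 3.72 in L2, 4.96 in L3 and 3.17 in L4, the low day 0 boars. It was 2.97 CPM in L5, 2.60 in L6, 2.88 in L7 and 2.99 in L8, the high day 0 boars. Every high boar was thus below every low boar, with L4 and L8 closest. In the remaining Landrace boars VANGL2 ran from 3.23 CPM in L9 to 5.29 CPM in L12, and in Duroc from 2.66 CPM in D4 to 4.58 CPM in D9.

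**Figure D2:**
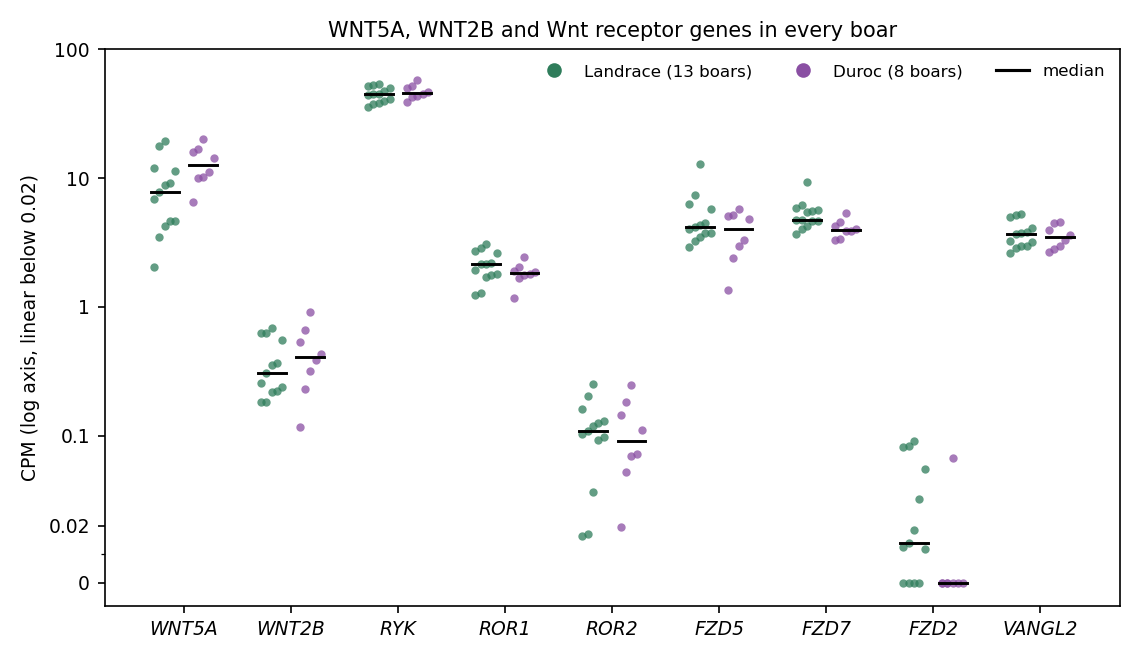
Level in every boar (vertical axis, CPM, log axis with a linear part below 0.02) of the 9 genes with a row in the count files, by breed, with the median of each breed as a line. RYK stays within 1.61-fold over all boars while WNT5A spans 9.92-fold, and FZD2 is at 0 in 7 of the 8 Duroc boars. CPM is not corrected for gene length, so heights are compared within a gene only.

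In contrast (i), 0 of the 6 members had an adjusted p below the threshold of 0.05 in edgeR's quasi-likelihood test, where 20.7% of the 12979 genes tested did. With the likelihood ratio test or DESeq2 the count was also 0 of 6, and 1 of the 6, VANGL2, had an unadjusted p under 0.05, as had 41.7% of all genes. The difference for VANGL2 was -0.56 on the log2 scale (standard error 0.24, 95% interval -1.07 to -0.04, adjusted p = 0.0974 in edgeR's quasi-likelihood test). The two-sided exact permutation test gave p = 0.0286, the smallest that 4 boars against 4 allow. Groups that did not overlap were found for 1 of the 6 members, against 28.3% of all genes tested, and high groups wholly below the low ones for 20% of all genes.

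None of the receptors passed in contrast (i). Log2 fold changes were 0.16 for RYK (95% interval -0.12 to 0.45), 0.20 for ROR1 (-0.44 to 0.84), 0.26 for FZD5 (-0.35 to 0.88) and 0.15 for FZD7 (-0.33 to 0.62). The signs for ROR1 and FZD7 turned without L4 and without L3, to -0.02 and -0.01. The median over the 6 members was 0.18, against 0.03 over all genes tested.

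In contrast (iii), given as a description, the log2 fold changes were 0.24 for RYK, 0.21 for ROR1, 0.75 for FZD5, 0.32 for FZD7 and -0.17 for VANGL2. The values of the 2 Frizzled genes and of ROR1 rested on L13. Without L13, FZD5 was at 0.02, FZD7 at -0.12 and ROR1 at -0.08. WNT5A was between 1.29 and 1.74 whichever boar was left out, and was 1.29 without L15. Nothing is read from this range, since contrast (iii) chose WNT5A and not the other members.

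In Duroc, 0 of the 6 members passed by edgeR's quasi-likelihood test, where 0% of the 13043 genes tested did and 1.21% had an unadjusted p under 0.05. None of the 6 members reached that unadjusted level, none passed with the likelihood ratio test or DESeq2, and no member had groups that did not overlap, a property of 1.38% of all genes. The log2 fold changes (labelled High over Low) were -0.18 for RYK (95% interval -0.52 to 0.16), -0.13 for ROR1 (-0.83 to 0.58), 0.29 for FZD5 (-0.68 to 1.27), 0.20 for FZD7 (-0.37 to 0.77) and -0.32 for VANGL2 (-0.93 to 0.28). With the Duroc labels exchanged each of these values, and that of WNT5A, takes the opposite sign.

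Between the breeds, 0 of the 6 members passed by edgeR's quasi-likelihood test, the likelihood ratio test or DESeq2, where 2.88% of the 13126 genes tested passed the first. FZD7 was the 1 member with an unadjusted p under 0.05, against 12.3% of all genes, and for 0 of the 6 members the breeds did not overlap, against 0.297%. It was 4.09 ± 0.668 CPM (SD, n = 8) in Duroc and 5.28 ± 1.43 (n = 13) in Landrace, a log2 fold change of -0.37 (standard error 0.16, unadjusted p = 0.0263 and adjusted p = 0.292 in edgeR's quasi-likelihood test). The two-sided exact permutation test gave p = 0.0124, again without adjustment over the members and comparisons, and the value was -0.28 without L13. The log2 fold changes of the others were -0.41 for FZD5 (95% interval -0.98 to 0.16), -0.20 for ROR1 (-0.58 to 0.17), -0.08 for VANGL2 (-0.41 to 0.25) and 0.07 for RYK (-0.13 to 0.26).

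The day 0 effect (high over low) was compared between the breeds by the interaction term. Of the 6 members 0 passed by edgeR's quasi-likelihood test, the likelihood ratio test or DESeq2, none had an unadjusted p under 0.05, and of the 12920 genes tested 0% passed the first and 15.1% had an unadjusted p under 0.05. As labelled, the lowest p among the members was that of RYK, at -0.38 for the Duroc effect over the Landrace effect (95% interval -0.77 to 0.01, unadjusted p = 0.0570 and adjusted p = 0.329 in edgeR's quasi-likelihood test). With the Duroc labels exchanged RYK was at 0.05 (95% interval -0.34 to 0.44), and the lowest p was that of VANGL2, at 0.91 (95% interval 0.22 to 1.60, unadjusted p = 0.0125 and adjusted p = 0.245 in the same edgeR test). In that direction 0% of all genes passed and 19.8% had an unadjusted p under 0.05. Which members differed most between the breeds thus depended on the direction taken for Duroc.

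**Figure D3:**
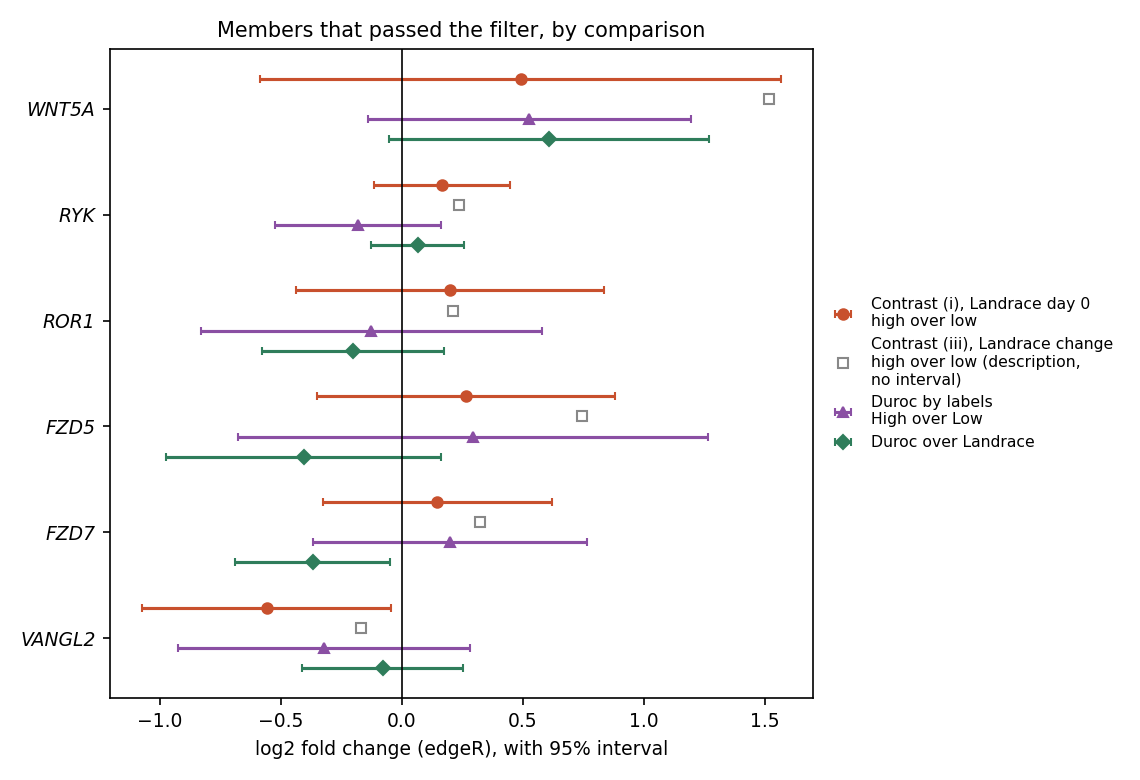
Log2 fold change (horizontal axis) of the 6 members that passed the filter, in 4 comparisons, with the 95% interval for the tested ones and a point alone for contrast (iii), which chose WNT5A. Of the tested values, the intervals of VANGL2 in contrast (i), -1.07 to -0.04, and of FZD7 between breeds, -0.69 to -0.05, do not reach 0.

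The genes whose pattern over boars was most like that of WNT5A were found by the correlation of log2 CPM over the 13 Landrace libraries, among 13125 genes. The nearest was FZD4 (ENSSSCG00000014920, chromosome 9 from 20714995 to 20721460), a Frizzled receptor known from blood vessel growth, with Pearson's r = 0.946 and Spearman's rho = 0.912. It was followed by CMBL, a hydrolase (r = 0.945), FBXO32, a ubiquitin ligase subunit (0.922), CALCRL, a receptor of adrenomedullin (0.919), and NIN, a centrosome protein (0.911). Over all genes the median r was -0.01 and the 95th percentile 0.606. These libraries share the boars of contrast (iii), their depth and their mix of cell types, so the correlations are a description.

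FZD4 was at 6.61 CPM in L8 and 39.5 CPM in L6, the Landrace boars with the least and the most WNT5A. In the low day 0 boars L1 to L4 it was 14.96, 21.3, 28.1 and 18.6 CPM, and in L5 and L7 it was 14.9 and 27.1 CPM. L9, L10 and L12 had 10.13, 10.01 and 15.4 CPM, and L13 and L15 had 21.9 and 31.5 CPM. Like WNT5A, FZD4 spread in the high day 0 group on both sides of the low group. FZD4 was picked for its likeness to WNT5A over these same libraries, so this order and spread follow from the choice. The contrast (i) difference of FZD4, which is not separate from that choice either, was 0.10 on the log2 scale with a standard error of 0.42 (adjusted p = 0.863 in edgeR's quasi-likelihood test).

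In the 8 Duroc libraries, which took no part in choosing these genes, r with WNT5A was 0.724 for FZD4, 0.702 for CMBL, 0.325 for FBXO32, 0.866 for CALCRL and 0.614 for NIN, where the median over all genes was 0.01 and the 95th percentile 0.721. FZD4 ran from 12.7 CPM in D6 to 39.2 CPM in D3, again the boars with the least and the most WNT5A, and D9 departed from the pattern with 28.7 CPM of FZD4 beside 10.1 CPM of WNT5A. CALCRL ran from 21.7 CPM in D6 to 73.8 CPM in D3.

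The members themselves did not share the pattern to that extent. In Landrace, r with WNT5A was 0.01 for ROR1, 0.02 for RYK, 0.31 for FZD5, -0.06 for FZD7 and -0.20 for VANGL2. In Duroc the values were -0.004, -0.11, 0.64, 0.52 and -0.11 in the same order. FZD5 and FZD7 were there above FBXO32 (0.325), and FZD5 was also above NIN (0.614). Summed cell type markers gave r = 0.83 for Leydig cells, 0.78 for endothelial cells, 0.69 for macrophages and 0.54 for fibroblasts in Landrace. In Duroc these were 0.39, 0.62, 0.61 and 0.61. Peritubular myoid (0.35) and Sertoli cell (0.22) sums followed WNT5A less in Landrace, and spermatid (-0.48), spermatocyte (-0.37) and spermatogonium (-0.23) sums ran the other way there but not in Duroc, where they were 0.51, 0.35 and 0.62. The part of any of these cells in the level of WNT5A was not tested.

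**Figure D4:**
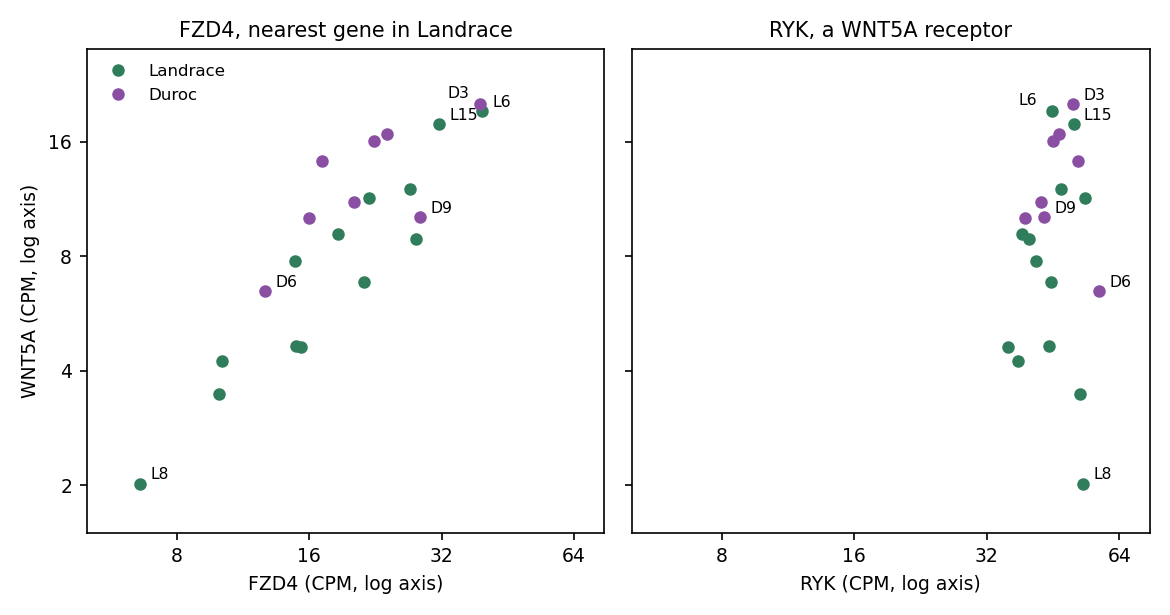
WNT5A (vertical axis, CPM, log axis) against FZD4 and against RYK (horizontal axes, CPM, log axes) in every boar, by breed, with some boars named. FZD4 rises with WNT5A from L8 to L6 and from D6 to D3 (r = 0.946 in 13 Landrace and 0.724 in 8 Duroc libraries), while RYK lies between 35.7 and 57.5 CPM at every level of WNT5A. FZD4 was picked for its r in Landrace.

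Of 94 further genes of the Wnt pathway in 8 lists, 57 were tested in contrast (i), and 4 were called higher and 10 lower by edgeR's quasi-likelihood test, against 4.82% and 15.8% of all genes. FZD3, a Frizzled receptor, rose from 65.7 ± 10.7 CPM (SD, n = 4) in the low to 100.2 ± 21.5 (n = 4) in the high group, a log2 fold change of 0.61 (adjusted p = 0.0308 in the same edgeR test). The other genes called higher were beta-catenin-independent effectors, 3 of 13 tested in that list, among them the small GTPase CDC42 (0.53) and the JNK kinase MAPK9 (0.42).

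Among the genes called lower, planar cell polarity genes made up 5 of 12 tested, including SCRIB, a scaffold protein (-2.24), and CELSR2, a polarity cadherin (-1.65). Of all genes, 15.8% were called lower, and whether any list departed from this share was not tested. The receptor gene FZD9 (-1.84) and AXIN1, a scaffold of the beta-catenin destruction complex (-1.70), also fell, and the beta-catenin branch had 3 of 12 lower. SCRIB was 1.82, 1.29, 2.86 and 1.51 CPM in L1 to L4 and 0.493, 0.238, 0.582 and 0.233 CPM in L5 to L8. AXIN1 was 1.43, 1.02, 2.70 and 1.94 CPM in L1 to L4 and from 0.306 to 0.772 CPM in L5 to L8. Both passed the filter of 1 CPM in 4 libraries through the low boars alone. With the high boars at these levels, each could enter the test only by being lower in them. The counts of 5 of 12 and 3 of 12 each include 1 of them. VANGL2, the member of the polarity branch, lay in the same direction with its -0.56 and did not pass.

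**Figure D5:**
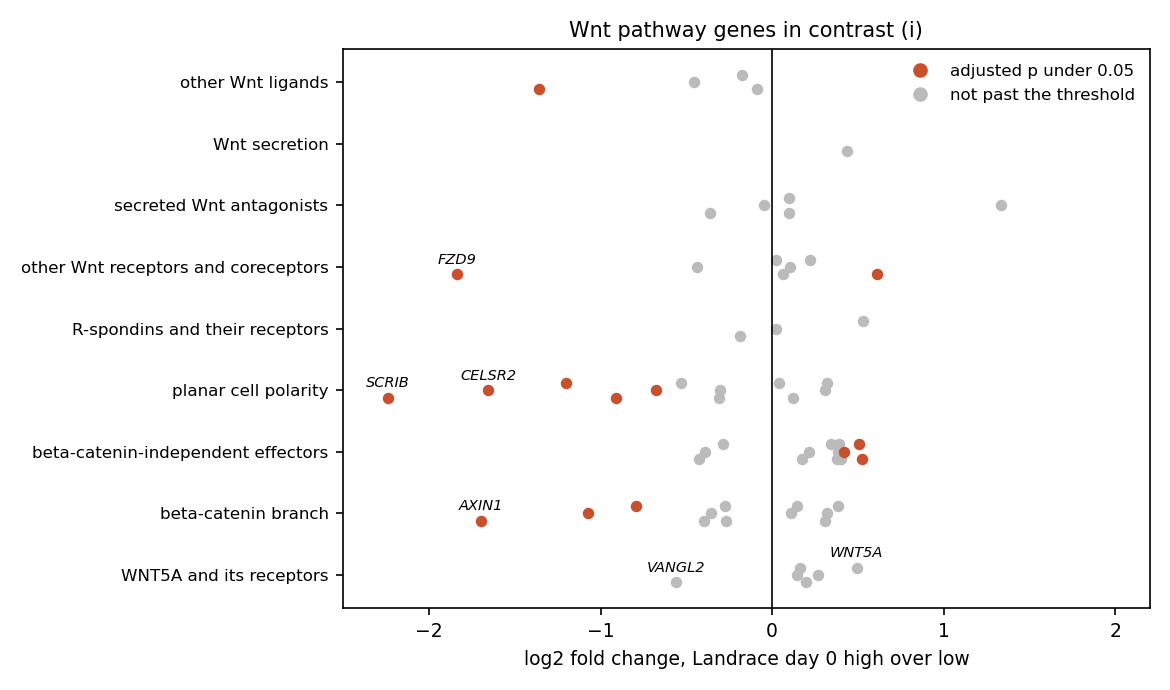
Log2 fold change in contrast (i) (horizontal axis, high over low day 0) of the tested genes of 8 Wnt pathway lists and of the 6 members, with 1 point per gene and genes past the threshold in red. The polarity list has 5 of 12 genes called lower, where 15.8% of all genes were. Its lowest value is -2.24 for SCRIB, which passed the filter through the low boars alone. All 6 members are grey, from VANGL2 at -0.56 to WNT5A at 0.49.

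These counts leaned on single boars. Without L3, and without L6, 0 of the pathway genes passed in either direction, as 1 gene in all passed there. Without L1, and without L8, 0 were called higher. Markers of other cells moved in the same contrast. Of the peritubular myoid markers 3 of 5 tested were called lower, with sums from 20.5 to 63.4 CPM in the high and from 54.1 to 125 CPM in the low boars and none at 0, where 15.8% of all genes were called lower. The spermatid markers did not move together, as 2 of 6 were called lower (PRM1 and TSSK6) while the other 4 lay above 0 without passing, with a list median of 0.14. Of the 6 fibroblast markers 1 (COL1A1) was called lower, and 2 (DCN and LUM) lay above 0. All 5 spermatocyte markers tested lay above 0, with a median of 0.48, and none passed. Their part in the Wnt pathway counts was not tested.

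Between breeds, 56 of the pathway genes were tested, and 1 was called higher and 1 lower in Duroc, against 1.35% and 1.53% of all genes. ANKRD6, which acts on Dishevelled in the polarity branch, was higher in Duroc, at 21.7 ± 6.60 CPM (SD, n = 8) against 13.8 ± 2.94 (n = 13) in Landrace, a log2 fold change of 0.65 (adjusted p = 0.0141 in edgeR's quasi-likelihood test). The ligand gene WNT8A was lower, at 6.95 ± 1.85 CPM in Duroc (SD, n = 8) against 13.99 ± 5.15 in Landrace (n = 13), a log2 fold change of -1.01 (adjusted p = 0.00642 in the same edgeR test). Both breeds overlapped for either gene. ANKRD6 no longer passed with only the day 0 Landrace boars. In Duroc by the labels, 0 of 55 pathway genes passed by edgeR's quasi-likelihood test.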

How the data were processed

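The authors extracted RNA from testis, made TruSeq stranded mRNA libraries, and sequenced single reads. After trimming in Trimmomatic 0.36, reads were mapped by STAR on the pig genome Sscrofa 11.1, and HTSeq gave reads per Ensembl gene in its reverse stranded mode. The deposited values are these raw counts, without normalization, 1 file per boar. Rows of reads on no single gene (29.4% to 39.0% of the listed reads) were left out.

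The fits were made in edgeR 4.0.16 under R 4.3.3 (TMM, quasi-likelihood test, Benjamini-Hochberg adjustment over all genes tested, threshold 0.05). Genes needed 1 CPM in 4 libraries, or in 8 for the breed and interaction fits. The study's likelihood ratio test and DESeq2 1.42.0 were alternatives, with RLE normalization, no filter and leaving out boars. Levels are CPM normalized over all 21 libraries, and log2 CPM used a prior count of 2. These steps were tested on simulated data. Members and gene lists were chosen with earlier results of these data known, and contrast (iii), which chose WNT5A, was not tested. Named pathway genes are those with an adjusted p under 0.05, at most the 4 highest and 4 lowest per comparison, and the 5 nearest genes by r in Landrace. Of the genes this rule names, 1 is not reported here. Symbols came from an identifier table naming 14857 of the 25880 genes and coordinates from RefSeq of Sscrofa11.1, matched by symbol. WNT4 and the list genes TCF7L1, PYGO2 and LGR6, and the markers HSD3B1, VWF, PIWIL1 and PRM3, were not matched. All 34 pairs of boars within a group differed beyond sampling noise (chi-square per degree of freedom from 45.9 to 288). P-values measure the spread between single boars. Single-gene permutation tests enumerated all 70, 56 or 203490 assignments.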

Additional observations from a re-analysis of the deposited data

How the results depend on the processing

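Of the 656 values recomputed under an alternative, 612 were classed as staying as reported. For tested values this meant the same direction and side of the threshold. For counts and untested values it allowed some change in size. No member passed in any of the tested comparisons under any alternative run. No scaling moved the median of all genes by over 0.1 on the log2 scale. Counts over all genes in contrast (i) depended on single boars, from 1 gene (without L3, and without L6) to 3764 (without L5). The Wnt pathway genes called higher in contrast (i) were 7 with the likelihood ratio test, 8 with DESeq2, 1 without L2 and L7, and between 0 and 9 leaving out 1 boar, and those called lower were between 0 and 11. In Duroc, leaving out 1 boar gave 0 to 2 genes. Between breeds, 2 pathway genes were lower with the likelihood ratio test and with DESeq2, and with only the day 0 Landrace boars 204 genes passed, 0 pathway genes were higher and VANGL2 turned to 0.0079. The breed difference of the day 0 effect, near 0 for WNT5A and FZD7 with Duroc as labelled, turned sign under RLE (-0.0056 and -0.0037), without the filter (-0.042 and -0.041) and with DESeq2 (-0.0063 and -0.0066), and was -0.98 for WNT5A, -0.31 for FZD7 and 0.054 for RYK with the Duroc labels exchanged, and over all genes 3 passed with the likelihood ratio test, 6 with DESeq2 and 1 without L2 and L7. Leaving out 1 boar, contrast (i) gave -0.0065 to 0.22 for FZD7 and -0.019 to 0.31 for ROR1, and contrast (iii) -0.078 to 0.44 for ROR1, -0.12 to 0.54 for FZD7 and 0.02 to 1.03 for FZD5. VANGL2 stayed between -0.72 and -0.46 in contrast (i), with adjusted p from 0.0804 to 0.221 in edgeR. Of the 5 genes nearest to WNT5A, 5 were kept under RLE and 2 (without L8) to 5 leaving out 1 Landrace boar. These likeness checks, the exchange of the Duroc labels and the leaving out of boars between breeds were chosen after seeing the data. The cause of these changes was not tested. No paired analysis was possible because the labels give no number that ties boars across groups. ROR2 and FZD2 are limited by depth.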

Other observations

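In contrast (iii), described without a test, 34 of 54 fitted Wnt pathway genes had a log2 fold change above 0, as had 50.4% of all genes. The median was 0.13 against 0.003 over all genes. Among the other Wnt receptors and coreceptors 5 of 6 were above 0 (median 0.65), with FZD9 at -1.18. Among the secreted Wnt antagonists, which bind Wnt ligands or their coreceptors outside the cell, 4 of 5 were above 0 (median 0.74). The other Wnt ligands had 1 of 4 above 0 (median -0.35) and the beta-catenin branch 6 of 11 (median 0.02). The beta-catenin-independent effectors had 11 of 13 above 0 (median 0.27), the planar cell polarity genes 4 of 11 (median -0.09). In the same comparison 6 of 6 fibroblast markers and 4 of 4 endothelial markers were above 0, with medians of 0.88 and 0.54. So were 6 of 6 Leydig cell (median 0.58), 2 of 2 macrophage (0.55) and 6 of 7 Sertoli cell markers (0.27). Spermatid markers went the other way, with 2 of 6 above 0 (median -0.43). The part of these cells in the pathway values was not tested.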
